A study of Canis lupus familiaris with 29 samples.

Results

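The genes described here are 47 that copy DNA or make its building blocks, chosen by name: the proteins that mark and license replication origins, the MCM helicase and its partners, the replicative polymerases with their clamp and clamp loader, the single-strand binding, flap-cutting and ligating proteins, enzymes of deoxynucleotide synthesis and chromatin assembly factor 1. Of the 47 names, 46 were found among the 30951 genes of the exon count table, and all 46 passed the low-count filter when tumors were compared with normal medulla. PRIM1, a primase subunit, was not among the names in the table. Before a cell divides, origin recognition proteins load the ring-shaped MCM helicase onto DNA, CDC45 and GINS activate it, and polymerases copy both strands behind it from deoxynucleotides that ribonucleotide reductase and its partner enzymes supply. Many of these genes are transcribed as cells enter S phase under control of the E2F factors, and adult chromaffin cells, the cells of the adrenal medulla, divide rarely.

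RNA was sequenced from 29 dogs: 10 normal adrenal medullas (NAMs), taken from healthy research dogs, and 19 pheochromocytomas and paragangliomas (PPGLs), tumors of chromaffin cells taken at surgery or after death from client-owned patients of several clinics. The authors split the tumors into PPGL group 1 (7 samples) and PPGL group 2 (12 samples) by a principal component analysis of these samples, after excluding 2 outlying tumors, so a p between the groups describes that split. No sample carried an engineered allele or an experimental treatment in the labels. Since NAMs and PPGLs come from different kinds of dogs, origin and tissue cannot be told apart. Stranded mRNA libraries were read as short single ends and aligned to CanFam3.1, and totals of counted reads were 19258054 to 35918182 in NAMs, 18493540 to 31919833 in group 1 and 18208718 to 24569667 in group 2. Levels are normalized counts-per-million (CPM, scaled by the trimmed mean of M-values), given as the lowest to the highest sample of a group with its median. At these depths 3 counts, taken as the floor of detection, equal 0.0779 to 0.175 CPM, which covers counting error only. A log2 fold change (log2 FC), its standard error (SE) and its p come from edgeR's quasi-likelihood test, with p adjusted by Benjamini-Hochberg over all genes tested. A gene is called higher or lower at an adjusted p below 0.05 against NAMs and below 0.1 between the PPGL groups. These p thresholds are those of the study, which also set a minimum fold change that is not applied here.

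The first question was which replication genes differ between tumor and normal medulla. Against NAMs, 25 of the 46 genes were higher in PPGLs, where 22.3% of all 14766 genes tested were higher, and 2 were lower, where 15.2% of all genes were lower. The median log2 FC was 0.59 over the 46 genes and 0.13 over all genes. With all tumors in the fit, CDC45, CDC6, TK1, ORC1 and RRM2 had the largest increases, with log2 FC of 3.34, 3.07, 2.54, 2.45 and 2.36. This order rests in part on PPGL group 1 replicate 7, which had the highest level of each of these genes. Without that tumor RRM2 lost its call. RFC1 and RPA1 fell, by 0.67 and 0.66 on the log2 scale, and 19 genes were not called. By the Mann-Whitney U-test, RPA1, FEN1, MCM5, ORC4, PCNA, POLA2, POLD1, PRIM2, RRM2 and TYMS lost their calls, and by limma voom FEN1, PCNA, POLA2, POLD1 and RRM2 did. In bulk tissue, fewer cells of a type and less RNA per cell cannot be told apart.

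The tumor groups were then set against the NAMs separately, in 15201 genes. In group 1, 31 of the 46 genes were higher than in NAMs (21% of all genes) and 1, RFC1, was lower (14.1% of all genes), with a median log2 FC of 1.01 against 0.13 over all genes. In group 2, 7 genes were higher (18.4% of all genes) and 7 were lower (14.5% of all genes), shares close to those of all genes in this fit, and the median was 0.14 against 0.095. A fit of these 2 groups alone gave 14 higher, where 3302 of 14428 genes were, and DESeq2's Wald test and limma voom each gave 11, where 3049 and 2916 of all 15201 genes were higher. The 7 higher genes were CDC6, MCM6, TK1, RPA3, GINS4, RPA2 and ORC4, and the 7 lower ones MCM10, RPA1, RFC4, ORC5, RFC1, ORC3 and RRM1. These 2 comparisons share the 10 NAMs. Of all 46, 6 genes were higher in both, 24 were higher in group 1 without a call in group 2, and RRM1 was higher in group 1 and lower in group 2. The same patterns over all genes are not given here, so these counts only describe the 46 genes. Without PPGL group 2 replicate 12, 11 genes were higher in group 2, and the lower genes numbered 3 without NAM replicate 8 and 4 without PPGL group 2 replicate 7. Over all genes, fits with 1 library left out gave 2433 to 2897 higher and 1944 to 2319 lower in group 2. RFC1 was joined by RPA1 as a lower gene in group 1, giving 2, when NAM replicate 1, 4, 5, 9 or 10 was left out.

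Between the PPGL groups, 25 of the 46 genes were higher in group 1, where 3.97% of all 14666 genes tested were higher. None was lower by edgeR, also at an unadjusted p below 0.05 and also by DESeq2, limma voom and the Mann-Whitney U-test, where 2.95% of all genes were lower. The log2 FC was above 0 for 44 of the 46 genes, with a median of 0.93 against 0.035 over all genes. Of the 25 higher genes, limma voom called 8 and the Mann-Whitney U-test, the test of the study, 9. Of all 14666 genes they called 78 and 161 higher. The study itself reported fewer genes than this Mann-Whitney run between the groups at an adjusted p below 0.1, and no gene below 0.05. The number called by edgeR also rests in part on 1 tumor, PPGL group 1 replicate 7. It was the highest of the 19 tumors in 33 of the 46 genes, a count that is not given over all genes here. It had 290.1 CPM of MKI67, the proliferation antigen, where the other 18 tumors had 4.55 to 45.6 CPM. Without it, 8 genes were called between the groups (MCM2, MCM3, GINS4, POLA2, PRIM2, FEN1, RRM1 and CHAF1B, the same 8 as by limma voom), 24 had an unadjusted p below 0.05, as did 2394 of all 14785 genes, and the median was 0.62. Over all genes, 256 were then higher and 269 lower, compared with 582 and 433 in all tumors. Without PPGL group 2 replicate 4, 369 of all genes were higher in group 1.

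Adrenal cortex markers moved with the groups. Of 9 markers, all in the table, 8 were lower and 0 were higher in PPGLs than in NAMs by edgeR, and 8 were lower and 0 higher in group 1 than in group 2, and the log2 FC of all 9 was below 0 in both comparisons. Their summed level was 14038 to 68672 CPM in NAMs (median 37208, most abundant CYP17A1), 92.0 to 1169 CPM in group 1 (median 275, most abundant STAR) and 255 to 34292 CPM in group 2 (median 3672, most abundant CYP17A1), and no marker was at 0 in all samples of a group. The mean log2 CPM of the markers, a cortical score, was 9.70 to 11.8 in NAMs, 0.18 to 4.43 in group 1 and 3.96 to 10.7 in group 2, so NAMs and group 1 did not overlap. With this score as a covariate, 2 of the 46 genes were higher in PPGLs, MCM6 (log2 FC 1.56) and RPA3 (log2 FC 1.45), 0 were lower and the median was -0.27, while 1230 of all genes were higher and 992 lower. In the same fit, 5 of the 46 genes were higher and 8 lower at an unadjusted p below 0.05. A like share of all genes, 4470 of 14766, passed in either direction. RPA3 is a model of 1 exon, with values in NAMs near the floor of 3 counts. Between the PPGL groups, 0 of the 46 genes were called with the covariate by edgeR, with 5 higher at an unadjusted p below 0.05, a share like that of all genes (1580 of 14666 in either direction), and 18 of all genes were higher and 170 lower. In group 1 against NAMs, all 32 calls were lost with the covariate by edgeR, and 11 of all genes were higher and 5 lower. At an unadjusted p below 0.05, 4 of the 46 genes were higher and 0 lower, where 1913 of all 15201 genes passed in either direction. In group 2 against NAMs, the same covariate left MCM6 (1.56) and GINS4 (0.96) called higher, where 700 of all 15201 genes were, a like share. The score is itself set apart by tissue and group, so the part of cortical cells in these differences cannot be told apart from that of the groups.

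Of the other marker lists, chromaffin genes summed to 16449 to 93241 CPM in NAMs, 8722 to 119048 CPM in group 1 and 19288 to 99484 CPM in group 2, and 3 of the 12 tested were higher and 1 lower in PPGLs. This and the counts of the lists that follow stand beside 22.3% of all genes higher and 15.2% lower. The 8722 CPM, the lowest chromaffin sum of all 29 samples, was that of PPGL group 1 replicate 7. The list of leukocyte genes had 3 of 10 higher and 1 lower in PPGLs, with sums of 105 to 274 CPM in NAMs, 76.8 to 245 CPM in group 1 and 63.1 to 1130.5 CPM in group 2, led by CSF1R in each group. Endothelial genes were lower in 3 of 6, with sums of 367 to 1062 CPM in NAMs, 191 to 918 CPM in group 1 and 217 to 792 CPM in group 2. Fibroblast genes were higher in 4 of 6, with sums of 301 to 728 CPM in NAMs (median 443), 188 to 2410.1 CPM in group 1 (median 564) and 429.7 to 25513 CPM in group 2 (median 989). PPGL group 2 replicate 11 had the highest sum of fibroblast genes (next 6009 CPM), of leukocyte genes (next 446 CPM) and of erythroid genes (next tumor of the group 17.8 CPM). Erythroid precursor genes were higher in 3 of 3 tested and summed to at most 0.839 CPM in NAMs, 28.6 CPM in group 1 and 65.0 CPM in group 2. Of the 3 Schwann cell genes tested, 0 were called by edgeR, with sums of 29.7 to 96.0 CPM in NAMs, 1.31 to 121 CPM in group 1 and 0.637 to 69.4 CPM in group 2. Between the PPGL groups, 1 chromaffin gene was higher and 1 erythroid gene lower in group 1. None of the leukocyte and fibroblast genes was called there by edgeR, but all 10 and all 6 had a log2 FC below 0, with medians of -0.99 and -2.05. The part of these cell types in the replication genes' differences was not tested.

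**Figure D1:**
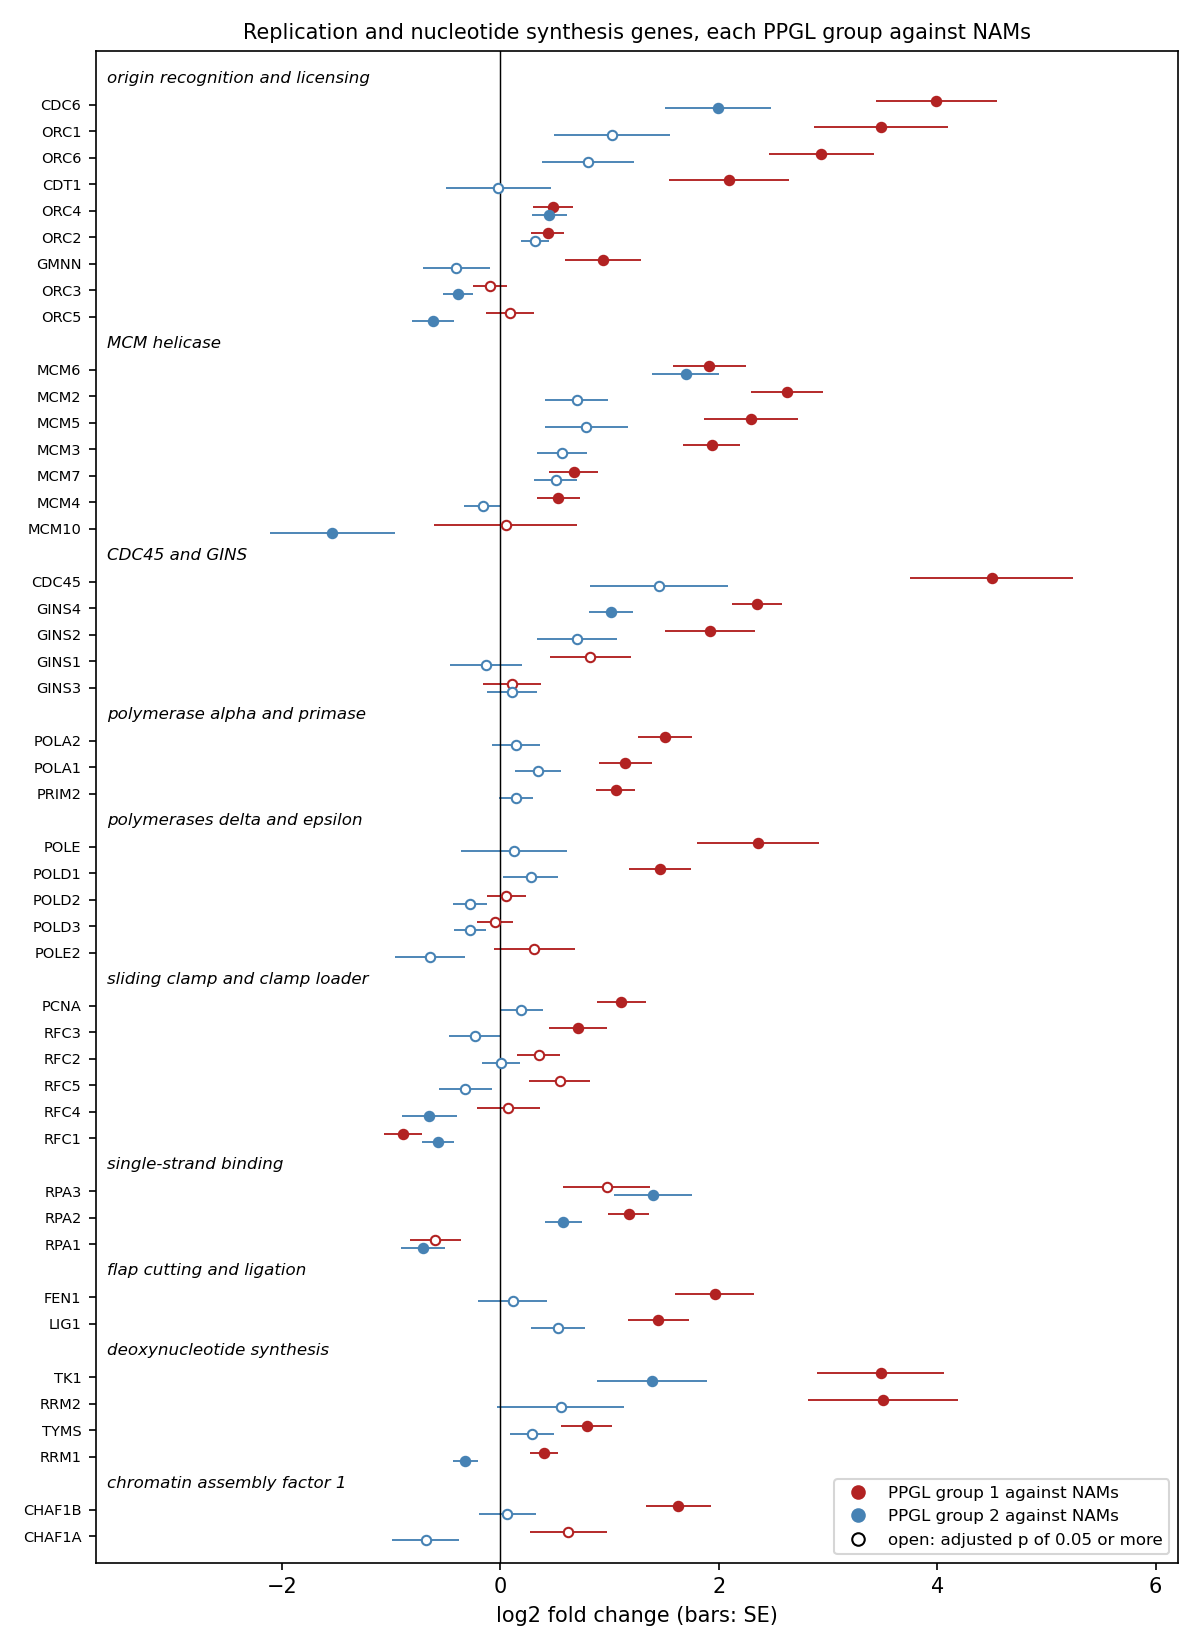
The log2 fold change of each of the 46 genes is shown for PPGL group 1 (red) and PPGL group 2 (blue) against the 10 NAMs, grouped by role, with bars of 1 SE and open points where the adjusted p was 0.05 or more. Most red points lie to the right of the blue ones, and RFC1 and RPA1 lie left of 0 in both groups.

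Origin recognition and licensing genes were higher in PPGLs in 5 of 9 cases, with a median log2 FC of 0.47, and 5 of 9 were higher in group 1 than in group 2. These counts and those of the roles that follow stand beside 22.3% of all genes higher and 15.2% lower in PPGLs, and 3.97% higher in group 1 than in group 2. CDC6, which loads the helicase onto origins and lies on chromosome 9, 22226719 to 22316963, minus strand of CanFam3.1, ranged over 0.109 to 2.48 CPM in NAMs (median 0.846), 1.98 to 51.7 CPM in group 1 (median 9.81) and 1.30 to 8.17 CPM in group 2 (median 2.90). Above every NAM lay 6 of 7 group 1 and 8 of 12 group 2 tumors, and it rose in both groups against NAMs, with log2 FC of 3.99 and 2.00. ORC1, the largest subunit of the origin recognition complex (chromosome 15, 8971732 to 8995481, plus strand), had 0.156 to 1.27 CPM in NAMs (median 0.432), 0.642 to 25.8 CPM in group 1 (median 2.76) and 0.169 to 2.97 CPM in group 2 (median 0.828). Of 19 tumors, 9 lay above every NAM, 6 of them in group 1 (log2 FC 2.45, SE 0.67, adjusted p = 0.00524). ORC6, the smallest subunit of that complex, had 0.420 to 1.26 CPM in NAMs (median 0.905), 0.583 to 28.8 CPM in group 1 (median 3.40) and 0.621 to 2.23 CPM in group 2 (median 1.66). It exceeded every NAM in 6 group 1 and 10 group 2 tumors (log2 FC 1.98, SE 0.54, adjusted p = 0.00515). The highest values of ORC1 and ORC6 were those of PPGL group 1 replicate 7, where the next tumors had 4.80 and 6.12 CPM. Neither call in PPGLs was lost without that tumor, but the sizes of these log2 FC rest in part on it.

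CDT1, the partner of CDC6 in helicase loading, had 0.831 to 4.33 CPM in NAMs (median 1.74), 0.583 to 21.7 CPM in group 1 (median 4.35) and 0.169 to 5.41 CPM in group 2 (median 1.50), and its groups overlapped, with 4 group 1 tumors above every NAM. It rose in group 1 against NAMs (log2 FC 2.09, SE 0.55, adjusted p = 0.00402), whereas its log2 FC in group 2 was -0.016. Exons of CDT1 share 195 bases with PIEZO1 on the opposite strand, and the strand setting of the counting is not given in the sources used here. GMNN encodes geminin, which blocks CDT1, and had 3.89 to 9.33 CPM in NAMs (median 6.95), 3.82 to 32.3 CPM in group 1 (median 10.9) and 2.42 to 10.2 CPM in group 2 (median 4.02). It had the smallest absolute log2 FC of this role in PPGLs, 0.25 (adjusted p = 0.6), and rose in group 1 (log2 FC 0.94, SE 0.35, adjusted p = 0.0354). That call was lost in 7 of 17 fits that left out 1 library, with a log2 FC of 0.51 and an adjusted p of 0.227 without PPGL group 1 replicate 7. Between the PPGL groups, log2 FC of CDC6, ORC1, ORC6, CDT1 and GMNN were 1.98, 2.45, 2.12, 2.10 and 1.33. Without PPGL group 1 replicate 7 they were 1.19 for CDC6, 1.29 for ORC1, 1.04 for ORC6, 1.66 for CDT1 and 0.92 for GMNN, and all 5 missed the threshold (adjusted p 0.157 to 0.201).

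The other subunits of the origin recognition complex had smaller log2 FC. ORC2 and ORC4 rose in PPGLs, by log2 FC of 0.37 and 0.47, with 12 and 14 of 19 tumors above every NAM. In group 1 the call of ORC2 was lost without PPGL group 1 replicate 4 and without PPGL group 1 replicate 7 (adjusted p up to 0.0814), and that of ORC4 in 9 of 17 fits with 1 library left out (up to 0.11). ORC3 and ORC5 fell in group 2, by 0.39 and 0.61 on the log2 scale, and 10 of 19 tumors had less ORC5 than every NAM. ORC3 and ORC4 lost their group 2 calls in 3 and 4 of 22 such fits, with adjusted p up to 0.0557 and 0.0609. Per kilobase of exon, the lowest subunit by group median was ORC1 in all 3 groups. The median ratio of the highest to the lowest subunit within a sample was 127 in NAMs, 29.7 in group 1 and 82.1 in group 2. ORC3 shares 46 exon bases with RARS2 on the opposite strand.

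The MCM helicase genes were higher in PPGLs in 5 of 7 cases (median log2 FC 1.24), and 5 of 7 were higher in group 1 than in group 2. MCM6, a subunit of the hexamer (chromosome 19, 38627183 to 38660280, minus strand), had 31.4 to 57.6 CPM in NAMs (median 45.5), 46.8 to 392 CPM in group 1 (median 135) and 54.0 to 312 CPM in group 2 (median 119). It exceeded every NAM in 17 of 19 tumors and rose in both groups, by log2 FC of 1.92 in group 1 and 1.70 in group 2, with 0.22 between them (adjusted p = 0.802). MCM2, another subunit (chromosome 20, 1682886 to 1702366, plus strand), had 5.54 to 20.7 CPM in NAMs (median 8.74), 22.9 to 179 CPM in group 1 (median 39.3) and 7.87 to 23.0 CPM in group 2 (median 16.0). All 7 group 1 tumors lay above every NAM and 6 of them above every group 2 tumor (log2 FC 1.92, SE 0.31, adjusted p = 0.00541). MCM3 had 14.0 to 26.8 CPM in NAMs (median 19.4), 34.8 to 164 CPM in group 1 (median 68.6) and 11.5 to 41.4 CPM in group 2 (median 28.3). Its 7 group 1 tumors also lay above every NAM and 5 lay above every group 2 tumor (log2 FC 1.36, SE 0.27, adjusted p = 0.013). Without PPGL group 1 replicate 7 the differences between the groups were 1.37 for MCM2 and 1.05 for MCM3 (adjusted p = 0.00649 and 0.03).

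MCM5 had 5.70 to 18.6 CPM in NAMs (median 8.56), 5.02 to 99.9 CPM in group 1 (median 42.8) and 4.46 to 41.2 CPM in group 2 (median 14.3), and PPGL group 1 replicate 6 was far below the other group 1 tumors. It rose in PPGLs (log2 FC 1.54, SE 0.44, adjusted p = 0.00657) and was higher in group 1 than in group 2 by 1.50 (adjusted p = 0.0716). That last call was lost without PPGL group 1 replicate 3, without PPGL group 2 replicate 4 and without PPGL group 1 replicate 7 (log2 FC 1.34, adjusted p = 0.158), where p reached 0.158. MCM4 had 34.8 to 58.4 CPM in NAMs (median 49.5), 31.9 to 109 CPM in group 1 (median 75.6) and 29.9 to 70.9 CPM in group 2 (median 42.6). Its log2 FC in PPGLs, 0.14, was the smallest of this role in absolute size, and it was higher in group 1 than in NAMs (0.53) and than in group 2 (0.69). Those calls were lost in 7 of 17 and 8 of 19 fits with 1 library left out, and without PPGL group 1 replicate 7 the log2 FC were 0.40 and 0.57. MCM7 rose in PPGLs by 0.58 on the log2 scale, and its group 1 call was lost without PPGL group 1 replicate 2 (adjusted p = 0.103).

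MCM10, which helps to activate the loaded helicase (chromosome 2, 23292253 to 23344719, minus strand), had 0.437 to 38.7 CPM in NAMs (median 3.26), 1.40 to 25.4 CPM in group 1 (median 4.80) and 0.959 to 6.05 CPM in group 2 (median 2.15). The highest value of all 29 samples was that of NAM replicate 8, 38.7 CPM, where the next NAM had 8.01 CPM. It fell in group 2 against NAMs (log2 FC -1.54, SE 0.58, adjusted p = 0.0401), but without NAM replicate 8 the log2 FC was -0.53 (adjusted p = 0.426), and the call was lost in 11 of 22 fits with 1 library left out. In PPGLs its log2 FC was -0.73 (adjusted p = 0.312), and it was -1.21 without PPGL group 1 replicate 7, where it was called lower (0.0486), but 0.28 without NAM replicate 8 (0.711). In group 1 against NAMs it was 0.050, and 1.06 without that NAM, with no call in either. Its log2 FC between the groups was 1.57 (adjusted p = 0.0552) and 0.83 without PPGL group 1 replicate 7 (0.25). Exons of MCM10 share 232 bases with UCMA on the opposite strand. Within the hexamer, MCM7 had the highest and MCM2 the lowest group median per kilobase in all 3 groups, at 37.4 and 2.71 CPM per kb in NAMs, 58.1 and 12.2 in group 1 and 50.7 and 4.96 in group 2. The median ratio of the highest to the lowest subunit within a sample was 14.4 in NAMs, 7.50 in group 1 and 16.7 in group 2, and these ranges overlapped (5.22 to 18.5, 1.82 to 21.3 and 7.66 to 34.8).

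CDC45 and the GINS subunits, which join the MCM ring to form the active helicase, were higher in PPGLs in 3 of 5 cases (median log2 FC 1.28), and 2 of 5 were higher in group 1 than in group 2. CDC45 (chromosome 26, 29707564 to 29739252, minus strand) had 0.102 to 1.61 CPM in NAMs (median 0.413), 0.525 to 69.1 CPM in group 1 (median 4.95) and 0.237 to 3.86 CPM in group 2 (median 1.18). With all tumors in the fit, it had the largest log2 FC of the 46 genes in PPGLs (log2 FC 3.34, SE 0.85, adjusted p = 0.00276), with 11 of 19 tumors above every NAM and 2 of 10 NAMs at 3 counts or fewer. The 69.1 CPM was that of PPGL group 1 replicate 7, where the next tumor had 8.04 CPM. Without that tumor the call in PPGLs was not lost, but the size of this log2 FC rests in part on it. The difference of CDC45 between the groups was 3.03 (adjusted p = 0.0249) and 1.45 without PPGL group 1 replicate 7, where the call was lost (adjusted p = 0.183). GINS4 (chromosome 16, 24056963 to 24069052, minus strand) had 2.36 to 4.69 CPM in NAMs (median 3.82), 13.5 to 30.5 CPM in group 1 (median 15.6) and 4.51 to 11.0 CPM in group 2 (median 7.59). All 7 group 1 tumors exceeded every group 2 tumor, and 17 of 19 tumors exceeded every NAM. It rose in group 1 (2.35) and group 2 (1.01) against NAMs and differed between them (log2 FC 1.34, SE 0.24, adjusted p = 0.00606). This difference was 1.21 without PPGL group 1 replicate 7 (adjusted p = 0.0158).

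GINS3 had 7.51 to 19.2 CPM in NAMs (median 13.6), 5.38 to 24.3 CPM in group 1 (median 14.4) and 7.38 to 22.9 CPM in group 2 (median 13.8). Its groups overlapped, and its log2 FC in PPGLs was 0.11 (adjusted p = 0.702), the smallest of this role in absolute size. GINS2 rose in PPGLs (log2 FC 1.28, SE 0.39, adjusted p = 0.0113), with 14 of 19 tumors above every NAM, and GINS1 had a log2 FC of 0.31 (adjusted p = 0.497). Exons of CDC45 share 100 bases with UFD1 on the opposite strand.

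Polymerase alpha and primase, which lay down the first short stretch of each new strand, rose in PPGLs in 3 of 3 genes found and were higher in group 1 than in group 2 in the same 3, with median log2 FC of 0.70 and 0.91. POLA2, the accessory subunit (chromosome 18, 51875903 to 51904746, minus strand), had 10.7 to 25.2 CPM in NAMs (median 17.3), 25.5 to 101 CPM in group 1 (median 43.8) and 9.14 to 32.1 CPM in group 2 (median 19.3). All 7 group 1 tumors lay above every NAM and 6 of them above every group 2 tumor (log2 FC 1.36, SE 0.25, adjusted p = 0.00694), while the log2 FC of group 2 against NAMs was 0.14. POLA1, the catalytic subunit, had 11.2 to 21.5 CPM in NAMs (median 15.4), 20.3 to 86.5 CPM in group 1 (median 28.6) and 11.7 to 35.3 CPM in group 2 (median 18.9). Here PPGL group 1 replicate 7 stood apart, as the next group 1 tumor had 32.5 CPM, and 10 of 19 tumors lay above every NAM. PRIM2, the large primase subunit (chromosome 12, 24504700 to 24811924, plus strand), had 9.12 to 15.6 CPM in NAMs (median 12.0), 16.4 to 38.5 CPM in group 1 (median 24.8) and 10.2 to 20.2 CPM in group 2 (median 12.6). All 7 group 1 tumors lay above every NAM and 4 above every group 2 tumor (log2 FC 0.91, SE 0.19, adjusted p = 0.0156).

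Against NAMs, the log2 FC of PPGLs was 0.81 for POLA2, 0.70 for POLA1 and 0.56 for PRIM2. Leaving out 1 library ended the call of POLA2 in 6 of 29 fits, PPGL group 1 replicate 7 among them (log2 FC 0.62, adjusted p = 0.0507), and that of PRIM2 without NAM replicate 1, 3 or 6 (adjusted p up to 0.0555). Between the groups, POLA1 differed by 0.80 (adjusted p = 0.093), a call that was lost in 14 of 19 such fits, with 0.42 and an adjusted p of 0.314 without PPGL group 1 replicate 7. Without that tumor, POLA2 and PRIM2 still differed by 1.11 and 0.80 (adjusted p = 0.0187 and 0.0316).

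Of the polymerases delta and epsilon, which extend the lagging and the leading strand, 1 of 5 genes was higher in PPGLs, close to the 22.3% of all genes (median log2 FC -0.14), and 2 of 5 were higher in group 1 than in group 2. POLE, the catalytic subunit of polymerase epsilon (chromosome 26, 433879 to 479917, plus strand), had 3.51 to 8.59 CPM in NAMs (median 6.60), 2.45 to 169 CPM in group 1 (median 9.72) and 2.37 to 14.7 CPM in group 2 (median 5.82). The 169 CPM of PPGL group 1 replicate 7 was the one value far from the rest, since the next tumor of the group had 15.3 CPM. The log2 FC of POLE was 2.36 in group 1 against NAMs (adjusted p = 0.00162) and 2.21 between the groups (0.0535). Without that tumor they were 0.58 and 0.47, and neither passed (adjusted p = 0.2 and 0.596). POLD1, the catalytic subunit of polymerase delta (chromosome 1, 106302574 to 106331385, minus strand), had 9.80 to 14.8 CPM in NAMs (median 12.1), 12.9 to 91.6 CPM in group 1 (median 25.6) and 7.64 to 30.0 CPM in group 2 (median 14.4). It rose in PPGLs (log2 FC 0.84, SE 0.30, adjusted p = 0.0281), with 12 of 19 tumors above every NAM, and differed between the groups by 1.18, or 0.73 without PPGL group 1 replicate 7, where the call was lost (adjusted p = 0.172).

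POLD2, an accessory subunit of polymerase delta on a scaffold that is not placed on a chromosome, had 47.2 to 73.7 CPM in NAMs (median 62.2), 33.4 to 109.6 CPM in group 1 (median 63.5) and 33.5 to 67.7 CPM in group 2 (median 49.9). Its groups overlapped, and its log2 FC in PPGLs was -0.14 (adjusted p = 0.478), the smallest of this role in absolute size. POLD3 and POLE2, also accessory subunits, had log2 FC of -0.18 and -0.21 without a call. Exons of POLD1 and POLD2 share 51 and 320 bases with NAPSA and AEBP1 on the opposite strand.

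In the sliding clamp and its loader, PCNA was higher and RFC1 lower in PPGLs, out of 6 genes with a median log2 FC of 0.11, and PCNA and RFC3 were higher in group 1 than in group 2. RFC1, the large subunit of the loader (chromosome 3, 73062329 to 73135096, plus strand), had 71.8 to 135 CPM in NAMs (median 97.9), 37.3 to 68.8 CPM in group 1 (median 56.5) and 37.3 to 94.1 CPM in group 2 (median 70.3). No tumor reached the NAM median, and 13 of 19 lay below every NAM. It fell in PPGLs (log2 FC -0.67, SE 0.14, adjusted p = 0.000428), in group 1 by 0.89 and in group 2 by 0.57 on the log2 scale. PCNA, the clamp that holds polymerases on DNA (chromosome 24, 16478769 to 16484992, plus strand), had 32.1 to 57.9 CPM in NAMs (median 44.4), 53.5 to 209 CPM in group 1 (median 75.3) and 33.7 to 83.3 CPM in group 2 (median 48.3). Above every NAM lay 6 group 1 and 3 group 2 tumors, and the increase in PPGLs (log2 FC 0.61, SE 0.23, adjusted p = 0.0385) was lost in 8 of 29 fits with 1 library left out (adjusted p up to 0.0683). Between the groups PCNA differed by 0.91, or by 0.60 without PPGL group 1 replicate 7, where it missed the threshold (adjusted p = 0.117).

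The small loader subunits varied. RFC3 had 5.23 to 13.3 CPM in NAMs (median 10.1), 7.80 to 37.8 CPM in group 1 (median 16.2) and 5.15 to 15.1 CPM in group 2 (median 7.93). It was higher in group 1 than in NAMs (0.71) and than in group 2 (0.94), calls that were lost without PPGL group 1 replicate 7 (0.37 and 0.61, adjusted p = 0.223 and 0.21). The second call was also lost without PPGL group 2 replicate 4, and the first in 6 of 17 fits with 1 library left out. RFC5 had 14.3 to 22.6 CPM in NAMs (median 17.6), 12.9 to 75.1 CPM in group 1 (median 17.96) and 8.70 to 25.9 CPM in group 2 (median 13.7). The top value was that of PPGL group 1 replicate 7, where the next group 1 tumor had 25.4 CPM, and the log2 FC in PPGLs was 0.068 (adjusted p = 0.859), the smallest of this role in absolute size. RFC4 fell in group 2 by 0.65 on the log2 scale (adjusted p = 0.047), lost in 12 of 22 such fits with p up to 0.0981, and RFC2 had a log2 FC of 0.15 in PPGLs without a call.

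The 3 genes named for subunits of RPA, which coats single-stranded DNA, did not move together. RPA2 and RPA3 rose and RPA1 fell in PPGLs, and none was called between the groups. RPA1, the large subunit (chromosome 9, 45958619 to 46034328, plus strand), had 70.5 to 284 CPM in NAMs (median 141), 75.6 to 128 CPM in group 1 (median 104) and 72.3 to 176 CPM in group 2 (median 90.5). No tumor lay outside the range of the NAMs, and 1 of 19 exceeded the NAM median (log2 FC -0.66, SE 0.18, adjusted p = 0.0049). RPA3, the small subunit (chromosome 11, 2893352 to 2893717, minus strand), had 0.104 to 0.512 CPM in NAMs (median 0.224), 0.177 to 0.920 CPM in group 1 (median 0.470) and 0.169 to 1.32 CPM in group 2 (median 0.523). Its values in NAMs lay near the floor of 3 counts, its model is 1 exon of 366 bases, and the gene did not pass a filter of at least 1 CPM. It rose in PPGLs (log2 FC 1.26, SE 0.33, adjusted p = 0.00365), with 9 of 19 tumors above every NAM. Whether the RPA3 model is the gene of the small subunit or another copy of its sequence was not tested. RPA2, the middle subunit, rose by 0.83 (adjusted p = 0.000754), with 16 of 19 tumors above every NAM. Exons of RPA2 share 340 bases with SMPDL3B and THEMIS2 on the opposite strand.

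Both enzymes that finish the lagging strand rose in PPGLs. FEN1, which cuts the flaps left by the RNA primers (chromosome 18, 54681760 to 54682902, minus strand), had 2.36 to 6.00 CPM in NAMs (median 4.05), 4.42 to 46.5 CPM in group 1 (median 11.3) and 1.94 to 8.44 CPM in group 2 (median 4.20). Above every NAM lay 5 group 1 and 2 group 2 tumors, and 5 group 1 tumors exceeded every group 2 tumor (log2 FC 1.83, SE 0.40, adjusted p = 0.0191), a difference of 1.31 without PPGL group 1 replicate 7 (adjusted p = 0.0616). The increase in PPGLs (log2 FC 1.09, adjusted p = 0.0417) was lost in 14 of 29 fits with 1 library left out and was 0.69 without that tumor (0.0856). FEN1 is annotated as 1 exon, of which 445 bases lie in an unnamed gene of the opposite strand. LIG1, the ligase that joins the cut ends (chromosome 1, 108105987 to 108143953, plus strand), had 20.2 to 30.5 CPM in NAMs (median 25.2), 28.6 to 157 CPM in group 1 (median 53.0) and 11.5 to 69.3 CPM in group 2 (median 33.6). It exceeded every NAM in 14 of 19 tumors (log2 FC 0.94, SE 0.27, adjusted p = 0.00724) and had a log2 FC of 0.92 between the groups (adjusted p = 0.109).

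Of 4 genes of deoxynucleotide synthesis, 3 were higher in PPGLs (median log2 FC 1.43) and 3 were higher in group 1 than in group 2. TK1, the thymidine kinase of the cytosol (chromosome 9, 2959488 to 2971064, plus strand), had 1.64 to 10.9 CPM in NAMs (median 2.81), 5.31 to 201 CPM in group 1 (median 25.2) and 2.43 to 28.2 CPM in group 2 (median 11.2). It exceeded every NAM in 6 group 1 and 7 group 2 tumors (log2 FC 2.54, SE 0.62, adjusted p = 0.00191) and rose in both groups, by 3.48 and 1.39, of which the second call was lost in 8 of 22 fits with 1 library left out (adjusted p up to 0.0613). RRM2, the small subunit of ribonucleotide reductase (chromosome 17, 7104961 to 7122939, plus strand), had 2.08 to 15.2 CPM in NAMs (median 5.71), 3.27 to 374 CPM in group 1 (median 27.4) and 0.903 to 23.6 CPM in group 2 (median 6.61). The 374 CPM of PPGL group 1 replicate 7 compares with 34.8 CPM in the next group 1 tumor, and 7 of 19 tumors lay above every NAM. Its log2 FC was 2.36 in PPGLs (adjusted p = 0.016) and 2.93 between the groups (0.0299). Without that tumor these were 1.06 and 1.19 and neither passed (adjusted p = 0.0627 and 0.261), and TK1 differed between the groups by 1.18 in place of 2.08, without a call (adjusted p = 0.187). Exons of TK1 share 51 bases with an unnamed gene of the opposite strand.

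RRM1, the large subunit of ribonucleotide reductase (chromosome 21, 26595914 to 26631135, plus strand), had 63.2 to 90.6 CPM in NAMs (median 78.7), 79.2 to 128 CPM in group 1 (median 111) and 38.4 to 83.8 CPM in group 2 (median 63.0). Of 7 group 1 tumors 5 exceeded every NAM, and 6 of 12 group 2 tumors were below all of them, with the others inside the NAM range. RRM1 rose in group 1 by 0.40 (adjusted p = 0.0192) and fell in group 2 by 0.32 on the log2 scale (adjusted p = 0.0347), and the groups differed by 0.72 (SE 0.15, adjusted p = 0.0156). The fall in group 2 was lost in 5 of 22 fits with 1 library left out (adjusted p up to 0.0636), whereas the difference between the groups was 0.69 without PPGL group 1 replicate 7 (adjusted p = 0.03). Over all PPGLs its log2 FC was -0.0046, the smallest of this role in absolute size. Per kilobase, the median RRM2 to RRM1 ratio was 0.0690 in NAMs, 0.327 in group 1 and 0.114 in group 2, and 5 of 7 and 4 of 12 tumors had a ratio above every NAM. PPGL group 1 replicate 7 had the highest ratio, 3.07, and was the only sample with more RRM2 than RRM1. TYMS, which makes thymidylate, rose in PPGLs by 0.50 (adjusted p = 0.0484), lost in 17 of 29 fits with 1 library left out and 0.37 without PPGL group 1 replicate 7 (0.0655). Its increase in group 1 against NAMs, 0.79, was 0.52 without that tumor, where the call was lost (adjusted p = 0.0576).

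Chromatin assembly factor 1 places histones on new DNA. Neither of its genes was called in PPGLs against NAMs by edgeR, and both were higher in group 1 than in group 2. CHAF1B, the middle subunit (chromosome 31, 31600448 to 31619784, plus strand), had 2.82 to 7.24 CPM in NAMs (median 5.43), 6.25 to 44.0 CPM in group 1 (median 13.2) and 3.51 to 9.64 CPM in group 2 (median 5.42). In group 1, 6 of 7 tumors exceeded every NAM and 4 every group 2 tumor (log2 FC 1.56, SE 0.32, adjusted p = 0.0144), and without PPGL group 1 replicate 7 the difference was 1.13 (adjusted p = 0.0358). Its log2 FC in PPGLs, 0.85, had an adjusted p of 0.0529 and passed the threshold in 9 of 29 fits with 1 library left out. CHAF1A, the large subunit (chromosome 20, 55248288 to 55276900, minus strand), had 15.4 to 30.6 CPM in NAMs (median 22.9), 9.10 to 117 CPM in group 1 (median 22.4) and 4.18 to 31.1 CPM in group 2 (median 13.1). Its group 1 and NAM medians were alike, and 9 of 19 tumors lay below every NAM. CHAF1A differed between the groups by 1.29 (adjusted p = 0.0738), but by 0.61 without PPGL group 1 replicate 7 (0.333), and the call was also lost without PPGL group 2 replicate 4. Its log2 FC in PPGLs was -0.051.

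**Figure D2:**
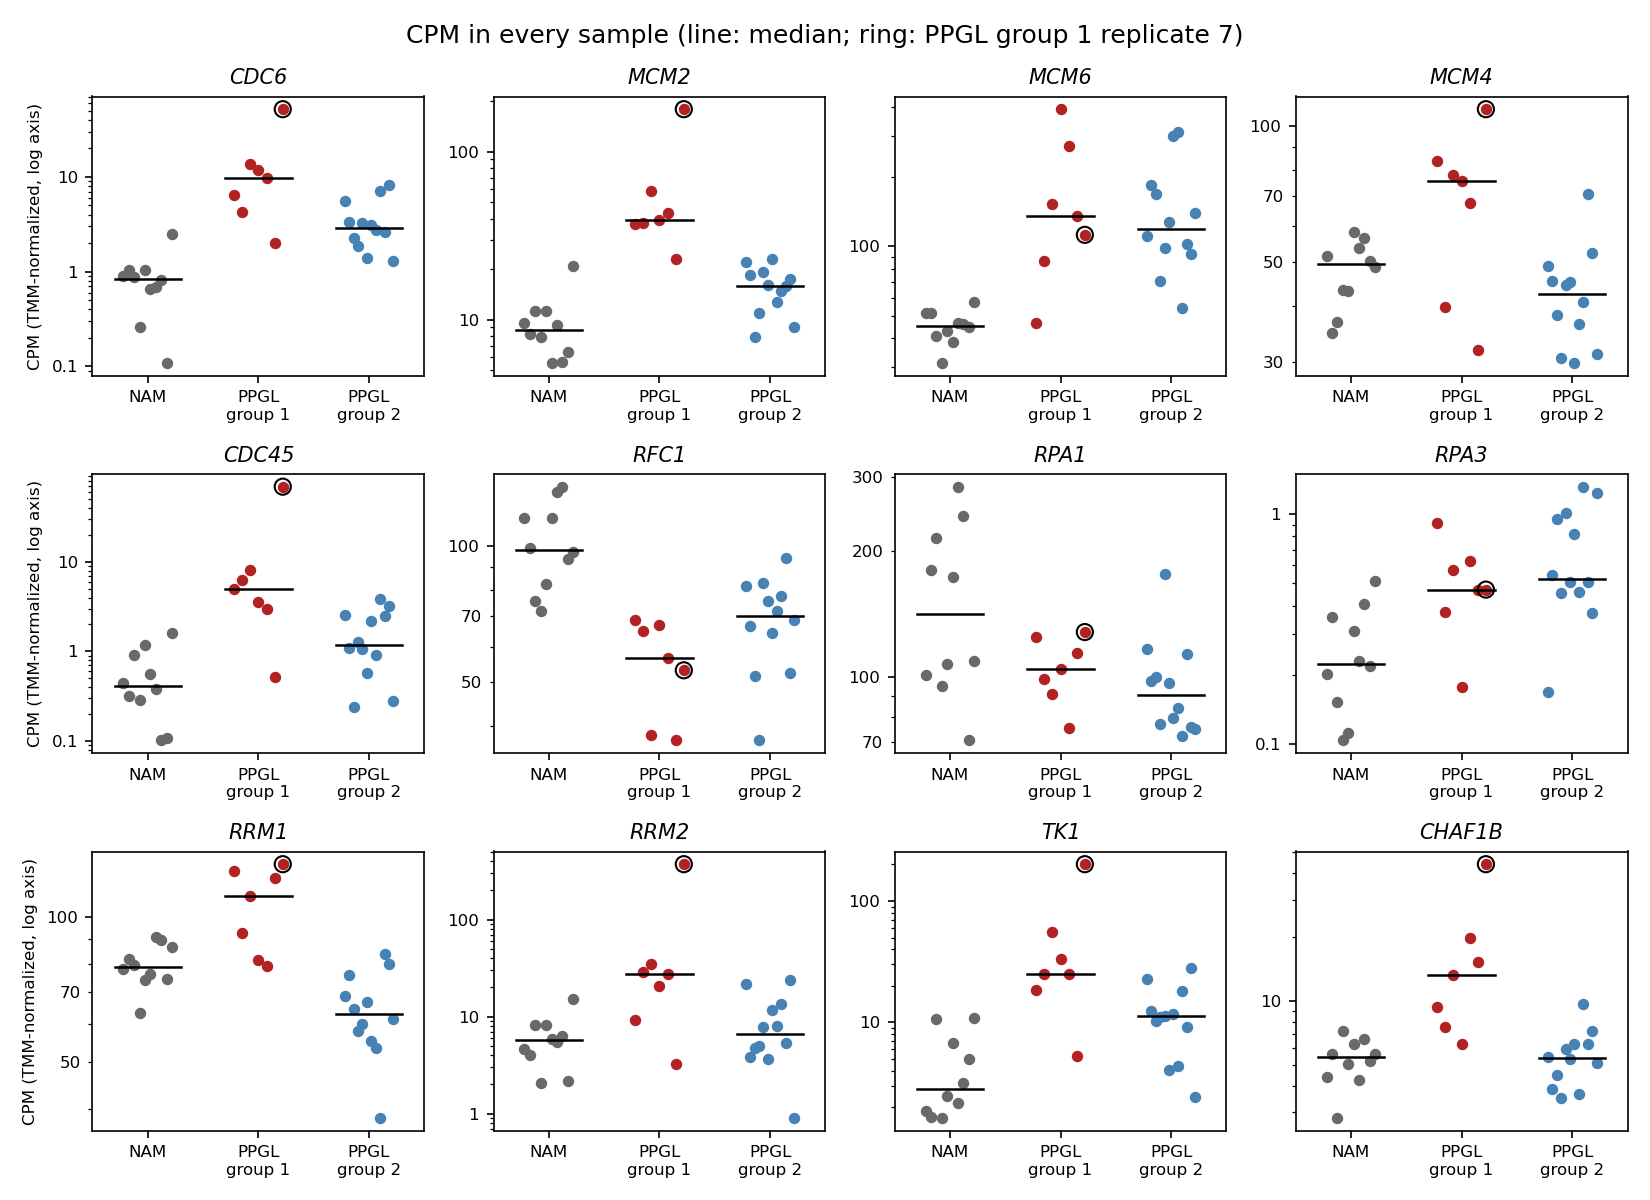
Normalized CPM on a log axis is shown for 12 genes in each of the 29 samples, with a line at each group's median and a ring around PPGL group 1 replicate 7. That tumor is the highest in CDC6, MCM2, MCM4, CDC45, RRM1, RRM2, TK1 and CHAF1B, but not in MCM6, RFC1, RPA1 or RPA3.

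Levels can be compared between genes only per length of exon. In NAMs the median per kilobase ran from 0.155 CPM for CDC45 and 0.160 for ORC1 to 38.7 for PCNA and 61.0 for RPA1. In group 1 PCNA led at 65.7, followed by MCM7 at 58.1 and MCM6 at 49.8. For each sample, the median over the 46 genes of the log2 level relative to the mean of the NAMs serves as a description of the set. It was -0.26 to 0.21 in NAMs, 0.22 to 2.18 in group 1 and -0.54 to 0.46 in group 2, so by this median every group 1 tumor lay above every NAM. By the mean over the same 46 genes, PPGL group 1 replicate 6 had 0.197 and NAM replicate 10 had 0.337, so the 2 groups overlapped. Which of the 2 summaries to use was not fixed in advance. The lowest group 1 tumor, replicate 6, also had the lowest MKI67 of all tumors, 4.55 CPM. Of the tumors, PPGL group 2 replicate 12 was the lowest in 16 of the 46 genes. Among NAMs, replicate 10 was the highest in 15 genes and had 16.1 CPM of MKI67, where the other 9 had 1.02 to 6.17 CPM. How often these samples were the highest or lowest over all genes is not given here.

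The next question was which of the genes vary with proliferation among tumors. MKI67 was 1.02 to 16.1 CPM in NAMs (median 4.26), 4.55 to 290.1 CPM in group 1 (median 24.9) and 10.6 to 43.4 CPM in group 2 (median 13.0), and rose in PPGLs (log2 FC 2.85, SE 0.63, adjusted p = 0.000816). A slope is the change in log2 level of a gene per unit of log2 MKI67, fitted by edgeR in the 19 tumors with a term for the PPGL group. Of the 46 genes, 11 had a positive slope, where 2.54% of all 14665 genes tested had one, and 0 had a negative slope, also at an unadjusted p below 0.05, where 0.825% of all genes had one. The median slope was 0.25 against 0.0053 over all genes. In the same fit no cell type marker was called by edgeR. A slope above 0 was found for 6 of 6 fibroblast (median 0.66), 9 of 10 leukocyte (0.20), 4 of 6 endothelial (0.041), 3 of 4 erythroid (0.21), 4 of 12 chromaffin (-0.22), 1 of 3 Schwann cell (-0.17) and 1 of 9 cortex genes (-0.59). The steepest slopes were those of RRM2 (1.11, SE 0.15, adjusted p = 0.000402), CDC45 (0.95, SE 0.19, 0.00788) and POLE (0.89, SE 0.13, 0.000838). TK1, ORC1, CDC6, ORC6, MCM10, POLE2, MCM2 and RFC5 followed, from 0.84 for ORC1 and 0.83 for TK1 down to 0.37 for RFC5. Among the 25 genes higher in PPGLs, 7 had a slope call and 18 did not, and MCM6 (slope -0.10), RPA3 (-0.16), RPA2 (-0.065) and ORC4 (-0.13) were below 0. The same split over all genes higher in PPGLs is not given here.

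The slope calls rest on the tumor with the most MKI67. Without PPGL group 1 replicate 7, 0 of the 46 genes and 0 of all genes had a slope call by edgeR, while 10 of the 46 and 970 of all genes had an unadjusted p below 0.05. Without the 2 tumors farthest from the MKI67 median, the counts were also 0 and 0, with 3 and 588 at an unadjusted p below 0.05, and the median slope was 0.099. The slope of RRM2, 1.11 in all tumors, was 1.09 without PPGL group 1 replicate 7, that of TK1 0.90 and that of CDC45 0.73, with adjusted p of 0.326, 0.388 and 0.765. RFC5 lost its call also without PPGL group 1 replicate 6, and POLE2 in 10 of 19 fits with 1 tumor left out. Over all genes, the positive slopes numbered 231 and the negative ones 51 without PPGL group 1 replicate 6, and the negative ones 72 without PPGL group 1 replicate 1, compared with 372 and 121. In the 10 NAMs, 0 of 41 genes tested and 0 of all 13168 genes (0%) had a slope call by edgeR, with 3 and 780 at an unadjusted p below 0.05. ORC1, ORC6, CDC6, CDC45 and RPA3 did not pass the filter in NAMs alone.

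**Figure D3:**
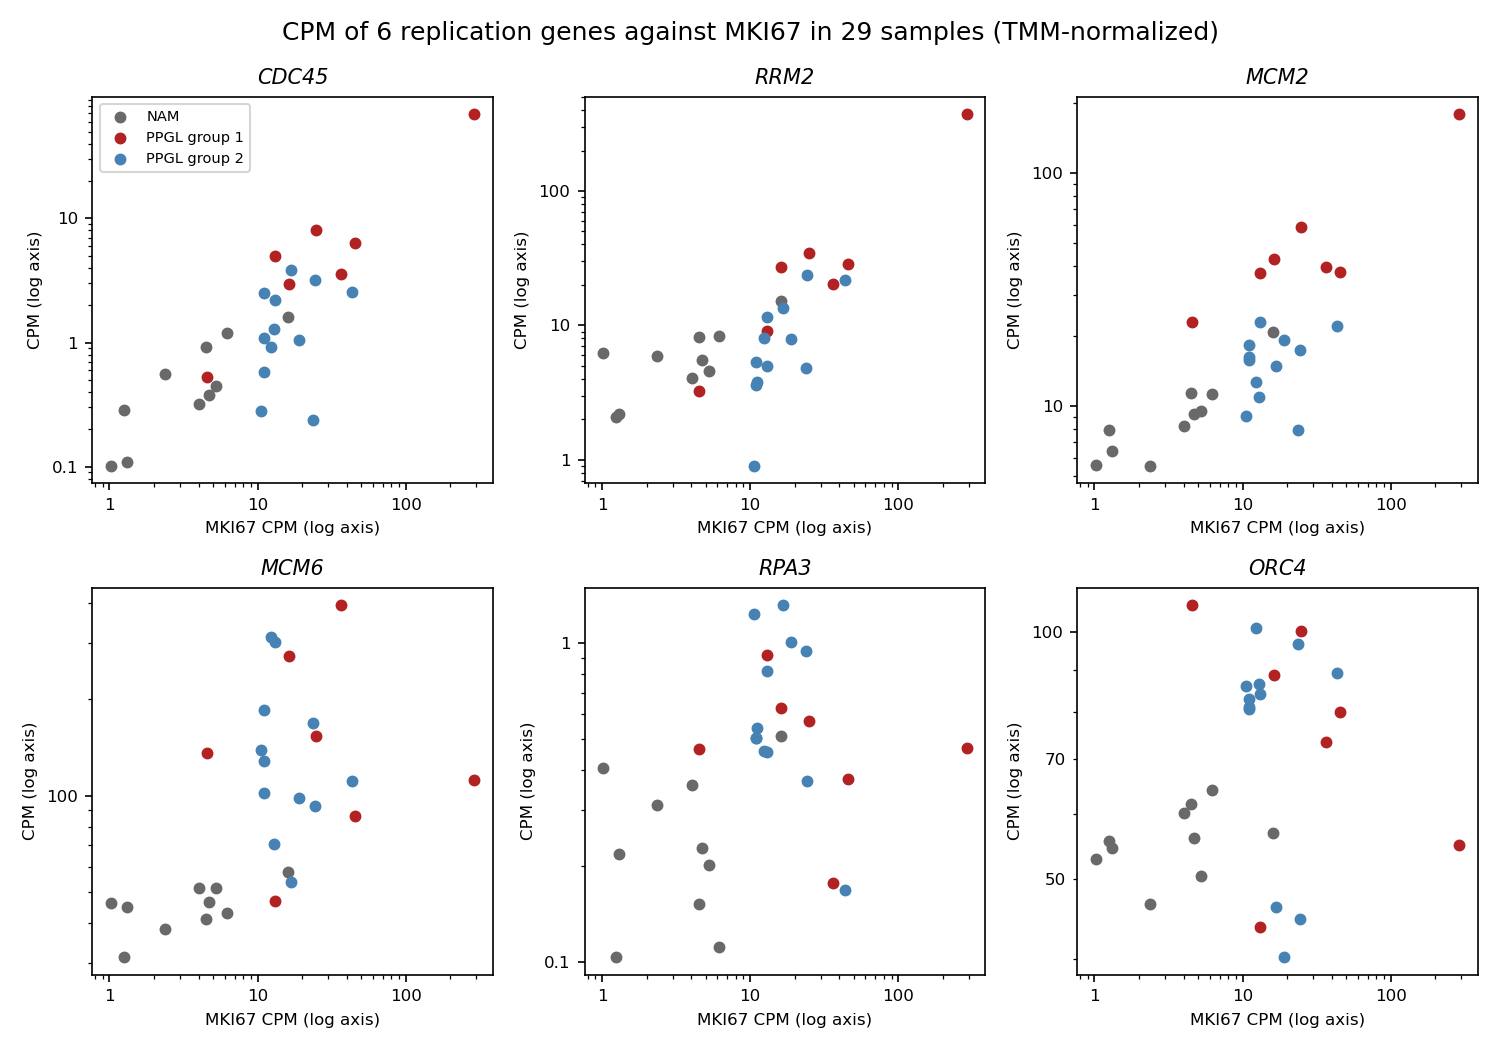
Normalized CPM of 6 genes is plotted against MKI67 CPM on log axes in 10 NAMs, 7 PPGL group 1 and 12 PPGL group 2 tumors. PPGL group 1 replicate 7 lies at the far right at 290.1 CPM of MKI67 and is the top point of CDC45, RRM2 and MCM2, but not of MCM6, RPA3 or ORC4.

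Genes that work beside these were read from lists. Of 23 other initiation and fork factors, 11 were higher and 2 lower in PPGLs (22.3% and 15.2% of all genes, median log2 FC 0.63 against 0.13), and 10 were higher in group 1 than in group 2 (3.97% of all genes), or 0 without PPGL group 1 replicate 7. CLSPN, which carries the checkpoint signal at forks (log2 FC 2.98, SE 0.68, adjusted p = 0.00116), and RECQL4, a helicase of origin firing (log2 FC 2.48, SE 0.60, adjusted p = 0.0019), rose most, with 11 and 17 of 19 tumors above every NAM. RNASEH2C, a subunit of the enzyme that removes ribonucleotides from DNA, and POLE3, a small subunit of polymerase epsilon, fell by 1.34 and 0.70 on the log2 scale (adjusted p = 0.000215 and 0.00208), with 14 and 13 tumors below every NAM. CDC7, the kinase that fires origins, had 3.00 to 6.58 CPM in NAMs (median 4.73), 3.28 to 27.1 CPM in group 1 (median 12.6) and 3.65 to 13.8 CPM in group 2 (median 6.12). It rose by 0.86 (adjusted p = 0.0165), with 10 tumors above every NAM, and its partner DBF4 was not among the gene names.

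Of 26 other enzymes of nucleotide supply, 5 were higher and 3 lower in PPGLs (22.3% and 15.2% of all genes), with a median log2 FC of 0.096, close to the 0.13 of all genes, and 5 were higher in group 1 than in group 2 (3.97% of all genes), or 1 without PPGL group 1 replicate 7. PFAS, an enzyme of purine synthesis, had 119 to 145 CPM in NAMs (median 126), 56.3 to 109 CPM in group 1 (median 68.6) and 41.4 to 82.8 CPM in group 2 (median 58.3). All 19 tumors lay below every NAM (log2 FC -0.95, SE 0.12, adjusted p = 9.73e-07). DHODH, an enzyme of pyrimidine synthesis, fell by 0.77 on the log2 scale (adjusted p = 0.00663), with 17 of 19 tumors below every NAM. NME1, a nucleoside diphosphate kinase, and DUT, which removes dUTP, rose by log2 FC of 0.79 and 0.75 (adjusted p = 0.00182 and 0.00295), with 11 and 13 tumors above every NAM. RRM2B, the small subunit used outside S phase, rose by 0.61 (adjusted p = 0.00305), with 14 tumors above every NAM, and had a log2 FC of 0.10 between the groups.

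Of 24 E2F, RB and DREAM genes, which control transcription in S phase, 13 were higher and 1 lower in PPGLs (22.3% and 15.2% of all genes, median log2 FC 0.74), and 7 were higher in group 1 than in group 2 (3.97% of all genes), or 1 without PPGL group 1 replicate 7. MYBL2, a transcription factor of the DREAM switch, had 0.610 to 2.49 CPM in NAMs (median 1.58), 0.583 to 227 CPM in group 1 (median 6.12) and 0.901 to 16.1 CPM in group 2 (median 2.69). It rose in PPGLs (log2 FC 3.42, SE 0.91, adjusted p = 0.00399), with 13 of 19 tumors above every NAM. The 227 CPM lay far above the median of its group, so the size of this log2 FC may rest in part on that tumor. A fit of MYBL2 without it is not given here. E2F2, an activating E2F, had 3 counts or fewer in 9 of 10 NAMs, so its fitted log2 FC of 4.31 (adjusted p = 0.000343) depends on the prior count, and 16 tumors lay above every NAM. E2F4, a repressing E2F, fell by 0.50 on the log2 scale (adjusted p = 0.000526), with 16 tumors below every NAM. LIN37, a DREAM subunit, had the lowest increase among the called genes (0.43, adjusted p = 0.0151, 5 tumors above every NAM), and E2F1 was not among the gene names.

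Of 11 genes of chromatin copying, 3 were higher and 1 lower in PPGLs (22.3% and 15.2% of all genes), with a median log2 FC of 0.15 against 0.13 over all genes, and 4 were higher in group 1 than in group 2 (3.97% of all genes), or 1 without PPGL group 1 replicate 7. UHRF1, which brings the maintenance methylase to new DNA, rose by 3.04 (adjusted p = 0.00563) and HELLS, a chromatin remodeler, by 1.96 (0.0014), with 8 and 16 of 19 tumors above every NAM. The histone chaperone ASF1A rose by 0.45 (0.0155, 10 tumors above every NAM), and RBBP7, a histone-binding protein, fell by 0.51 on the log2 scale (0.00423, 15 tumors below every NAM). As a reference, 19 of 22 mitosis genes were higher in PPGLs (22.3% of all genes, median log2 FC 2.53) and 17 were higher in group 1 than in group 2 (3.97% of all genes), or 2 without PPGL group 1 replicate 7. Among them CENPA, the centromere histone, had a log2 FC of 3.73 with 3 of 10 NAMs at 3 counts or fewer, CENPF, a kinetochore protein, 3.30, CDK1, the mitotic kinase, 1.08 and NUSAP1, a spindle protein, 0.89 (adjusted p = 0.000787, 0.000533, 0.0451 and 0.0313), with 14, 14, 7 and 7 of 19 tumors above every NAM. When the fit also held the cortical score, 0 of the initiation and fork, 1 of the nucleotide supply, 2 of the E2F, RB and DREAM, 0 of the chromatin copying and 0 of the mitosis genes were higher in PPGLs by edgeR, where 1230 of all 14766 genes were, so counts this low in lists of this length are near those of all genes. Between the PPGL groups, each of these lists had 0 genes higher with the score by edgeR, where 18 of all 14666 genes were higher.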

How the data were processed

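Each value is a read count, and the authors deposited these raw, as 1 table of exon reads for Ensembl genes in 29 samples. The submitters' processing notes name FastQC, STAR, Picard, HTSeq and CanFam3.1, without versions or a strand setting, while the deposited table is labeled as made by featureCounts, so which of the 2 tools counted the reads is not known. All values were whole numbers, and no pair of samples was identical.

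Genes were filtered by edgeR's filterByExpr (minimum count 10, minimum total 15), normalized by TMM and tested by the quasi-likelihood F test with a prior count of 0.125 for the log2 FC, in all 29 samples (PPGLs against NAMs in a fit of 2 levels, each group against NAMs in a fit of 3) or in the 19 PPGLs. Adjusted p-values are Benjamini-Hochberg over all genes tested, at 0.05 against NAMs and for slopes, and 0.1 between PPGL groups. Log2 CPM used a prior count of 2. Each of the 47 genes is accounted for by role. The lowest, median and highest values are given for the genes with the largest and the smallest absolute log2 FC against NAMs in each role and for all called between the PPGL groups. Of each other list, the 2 highest and 2 lowest called log2 FC are named, with MKI67, CDC7, DBF4, E2F1 and RRM2B. The genes drawn per sample and against MKI67 were picked after their values were seen. The genes and lists were chosen with earlier results of these data known.

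Alternatives were DESeq2's size factors, library size alone, DESeq2's Wald test, limma voom with a variance for each group, a Mann-Whitney U-test, another low-count filter (none, or 1 CPM and above), prior count 2 for the fold change, other samples in the fit, a replicate block, a term for the cortical score, each library left out in turn and, for slopes, TOP2A, no group term or no 2 most distant tumors. The steps were also run on simulated data, whose outcome is not given here and does not bear on the calls above. Tests ran in edgeR 4.0.16, DESeq2 1.42.0 and limma 3.58.1 under R 4.3.3, and figures in matplotlib 3.10.9 with pandas 2.3.3 under Python 3.11.15. Promoter sequences were not used here.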

Additional observations from a re-analysis of the deposited data

Results flagged for a closer look

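The 46 genes were each looked at in the NAMs and in PPGL group 1 for a highest or lowest sample whose gap to the next, divided by the range of the group on the log2 scale, passed the 95% critical value of Dixon's test. Of 92 such groups of values, 4 held one, where chance gives about 1 in 20. GINS2 was low in NAM replicate 9, at 0.437 CPM. POLA1, POLE and RFC5 were high in PPGL group 1 replicate 7, at 86.5, 169 and 75.1 CPM.

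The 2 PPGL groups differed in 25 genes by edgeR's test of the difference itself, all higher in group 1. The log2 FC between them was as follows: ORC1 (2.45), ORC6 (2.12), CDC6 (1.98), CDT1 (2.10), GMNN (1.33), MCM2 (1.92), MCM3 (1.36), MCM4 (0.69), MCM5 (1.50), MCM10 (1.57), CDC45 (3.03), GINS4 (1.34), and for the later steps of replication POLA1 (0.80), POLA2 (1.36), PRIM2 (0.91), POLD1 (1.18), POLE (2.21), PCNA (0.91), RFC3 (0.94), FEN1 (1.83), RRM1 (0.72), RRM2 (2.93), TK1 (2.08), CHAF1A (1.29) and CHAF1B (1.56). The tumor that was highest in 33 of the 46 genes, PPGL group 1 replicate 7, is part of these values, and 8 of the 25 genes were called without it. Limma voom called 8 of the 25, the Mann-Whitney U-test 9, and edgeR with the cortical score as a term 0, where 5 of the 46 had an unadjusted p below 0.05. Of all 14666 genes these called 78, 161 and 18 higher, and 1580 had an unadjusted p below 0.05 with the score, in either direction.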

How the results depend on the processing

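DESeq2's size factors, a filter of at least 1 CPM, no filter and a prior count of 2 gave counts of genes called higher that were within 1.5 times of those reported in all 4 group comparisons. In PPGLs against NAMs, limma voom gave 4 lower genes of the set and 3479 of all genes lower. The Mann-Whitney U-test gave 16 higher and 1 lower, where 2824 and 2920 of all genes were. Between PPGL groups, DESeq2's Wald test gave 916 and 877 of all genes higher and lower, limma voom 8 of the set and 78 and 47 of all genes, the Mann-Whitney U-test 9 and 161 and 243, and all 3 groups in the fit 1405 and 1162 of all genes. In group 1 against NAMs, DESeq2's size factors and its Wald test each gave 2 lower genes of the set (2180 and 2495 of all genes). Limma voom gave 1771 of all genes higher. In group 2 against NAMs, library size alone gave 3 lower (1931 of all genes). DESeq2's Wald test gave 11 higher (3049 of all genes), limma voom 11 (2916) and a fit of only the 2 groups 14 (3302). The cause of these differences was not tested.

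The replicate block, with the sample number of the labels as a term, gave 0 of the set higher between PPGL groups. Of all genes it gave 10 higher and 37 lower. At an unadjusted p below 0.05, it gave 24 of the 46 genes higher and 1526 of all 14666 genes in either direction. With the block, 1921 of all genes were higher in group 1 against NAMs. In group 2 against NAMs, 4 genes of the set and 2193 of all genes were lower. The numbers count different animals in each group: the same-numbered samples had correlated deviations from -0.23 to 0.25, and 0 of 7, 0 of 7 and 2 of 10 matched best with their own number.

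The cortical score as a covariate gave, in PPGLs against NAMs, 2 higher and 0 lower genes of the set, a median of -0.27 and 1230 and 992 of all genes higher and lower. Between PPGL groups it gave 0 of the set and 18 and 170 of all genes. In group 1 against NAMs it gave 0 higher and 0 lower, and 11 and 5 of all genes. At an unadjusted p below 0.05, that fit gave 4 and 0 of the set and 1913 of all 15201 genes in either direction. In group 2 against NAMs the score gave 2 higher and 0 lower, and 700 and 440 of all genes. Genes of the set with a log2 FC above 0 went from 35 to 17 of 46 in PPGLs, 44 to 39 between groups, 42 to 35 in group 1 and 29 to 20 in group 2. Of the genes called without the covariate, signs turned for these: in PPGLs MCM2 -0.0037, GINS2 -0.042, POLA1 -0.087, POLA2 -0.38, PRIM2 -0.18, POLD1 -0.30, PCNA -0.26, FEN1 -0.63, RRM2 -0.79; between groups MCM10 -0.0024; in group 1 against NAMs CDT1 -0.13, MCM7 -0.25, GINS2 -0.21, POLD1 -0.074, RRM2 -0.47.

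For slopes in PPGLs, no group term gave 21 genes of the set and 643 of all genes with a positive slope, TOP2A 61 and the cortical score 62 negative slopes over all genes. Without the 2 most distant tumors there were 0 of the set, 0 positive and 0 negative of all genes and a median slope of 0.099. In NAMs, TOP2A gave a median slope of 0.061 and 1 positive slope over all genes. A median slope has no spread between replicates, so a move by 50 percent of its value was taken as a change, a limit set after the results were seen.

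With 1 library left out, the genes of the set numbered 20 to 26 higher and 2 to 3 lower in PPGLs, 8 to 28 and 0 to 0 between groups, 25 to 31 and 1 to 2 in group 1 and 5 to 11 and 3 to 8 in group 2. Medians were 0.48 to 0.63, 0.62 to 1.03, 0.69 to 1.11 and 0.11 to 0.21. Over all genes the higher ones numbered 2945 to 3383, 256 to 733, 2860 to 3256 and 2433 to 2897, and the lower ones 2009 to 2407, 269 to 485, 1934 to 2217 and 1944 to 2319. Slopes in PPGLs gave 0 to 12 genes of the set and a median of 0.13 to 0.28, with 0 to 406 positive and 0 to 181 negative over all genes. In NAMs the median slope was -0.0083 to 0.057, with 0 to 2 positive and 0 to 1 negative over all genes.

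Of the calls in PPGLs against NAMs, 59.5% were higher, against 47.8% by limma voom, 48.9% with the replicate block and 49.2% by the Mann-Whitney U-test. Between PPGL groups the 57.3% became 21.3% with the replicate block, 9.57% with the cortical score and 39.9% by the Mann-Whitney U-test, and in group 1 against NAMs the 59.9% became 47.9% by limma voom and 48.8% with the replicate block. In group 2 against NAMs the 55.9% became 47.5% by both. Library size alone moved the median log2 FC of all genes by 0.11 in group 1 against NAMs, and limma voom by -0.13 and -0.15 in PPGLs and group 1. Values of RPA3 in NAMs lay near the floor of 3 counts. Whether reads from exons shared by opposite strands were counted apart is not known.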
